A study of Homo sapiens with 6 samples.

Results

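SYK, the spleen tyrosine kinase, is 1 of the 236 cancer-related genes counted in NCM-460, a human epithelial cell line that comes from normal colon. It was taken from the single row of the raw count table that carries its name, and it was chosen because its difference between the groups was among the largest decreases on the panel. That contrast therefore serves here as a description of SYK, and no test of it is reported for SYK. The 6 samples form 2 groups of 3: pri-miR-135b cells, which received the primary transcript from which the microRNA miR-135b is cut, and control siRNA cells, which received a control siRNA instead. The sample labels name 2 different kinds of RNA, whereas the design text speaks of oligos for both, so the kind of RNA and miR-135b cannot be told apart as sources of a difference. The labels do not say whether the 3 samples of a group are separate cultures, and the spread between them may be technical. The assay was the NanoString nCounter, which hybridises barcoded probe pairs to RNA and counts them without amplification.

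SYK is a cytoplasmic kinase with a pair of SH2 domains, through which it docks on phosphorylated ITAM motifs of immune receptors and their adaptors. Src-family kinases phosphorylate those motifs. Active SYK passes the signal to phospholipase C gamma, PI3-kinase, the RAS and MAP kinase branch and NF-kB. It is best known from B cells, mast cells and platelets, and is also expressed in epithelial cells, where loss of SYK has been described in breast carcinoma.

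Reference sequences of miR-135b and the related miR-135a are shown because the seed is what a microRNA uses to recognise messenger RNAs. Which form of miR-135b RNA the cells received is not settled by the labels and the design text. The sequences below are those of RefSeq on build GRCh38.p14, written 5′ to 3′, with the seed (bases 2 to 8) in capitals in the mature forms and both mature arms in capitals in the hairpin. The MIR135B hairpin lies on the minus strand at chr1:205448302-205448398.
hsa-miR-135b-5p: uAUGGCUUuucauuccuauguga
hsa-miR-135b-3p: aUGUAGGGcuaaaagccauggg
hsa-miR-135a-5p: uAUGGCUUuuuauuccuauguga
MIR135B hairpin: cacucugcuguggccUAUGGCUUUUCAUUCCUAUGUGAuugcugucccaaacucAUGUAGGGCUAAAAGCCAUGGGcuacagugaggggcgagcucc
The 5p arms of miR-135b and miR-135a share the seed AUGGCUU and differ at 1 of 23 bases, C11U, counted from the 5′ end with the miR-135b base first. The microRNA itself is not among the 236 genes, so its level was not measured. SYK lies on chromosome 9. The table pairs its probe with 1 of the 4 curated RefSeq transcripts of the gene, and since the position of the probe is not given, the count cannot be divided between splice forms. SYK transcript sequence was not used here, and no search for seed matches in SYK was made.

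SYK was well above background in every sample. Its raw counts were 613, 528 and 390 in pri-miR-135b replicates 1 to 3, against 934, 987 and 595 in control siRNA replicates 1 to 3. The background level, the mean of the 8 negative control probes plus 2 SD, was 16.0, 16.7 and 14.7 counts in the pri-miR-135b samples and 15.5, 26.1 and 19.7 in the control samples. SYK therefore stood 26.5 to 38.4 times above background with pri-miR-135b and 30.2 to 60.1 times above it in control. The raw counts of the groups overlapped in 1 place, as pri-miR-135b replicate 1, at 613, lay above control replicate 3, at 595. Those samples differed in depth, with 391786 counts over all genes in pri-miR-135b replicate 1 and 250792 in control replicate 3.

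After adjustment for depth the groups separated. Per 100000 gene counts, SYK took 156.5, 162.5 and 155.1 in pri-miR-135b samples, against 279.9, 251.7 and 237.2 in control. Scaled with edgeR's TMM factors, its counts were 510.1, 522.8 and 497.1 in pri-miR-135b samples and 909.6, 814.7 and 777.3 in control. The means were 510.0 ± 12.9 with pri-miR-135b and 833.9 ± 68.2 with control siRNA (SD, n = 3 each), a log2 fold change of -0.71 (SE 0.06), or 1.64-fold lower. The lowest control sample was 1.49 times the highest pri-miR-135b sample. All 3 pri-miR-135b samples lay below all 3 control samples, as they also did in 29.9% of the 174 genes tested, and the groups did not overlap in either direction in 51.7%. By the quasi-likelihood test of edgeR (adjusted p threshold 0.05), 43.1% of the 174 genes were called, 17.8% as higher and 25.3% as lower with pri-miR-135b. SYK was fitted with the other genes and is itself included in all of these shares. Nothing about SYK is read from them, since it was chosen on this contrast. With bulk RNA, less SYK RNA per cell and fewer cells that express it cannot be told apart.

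**Figure D1:**
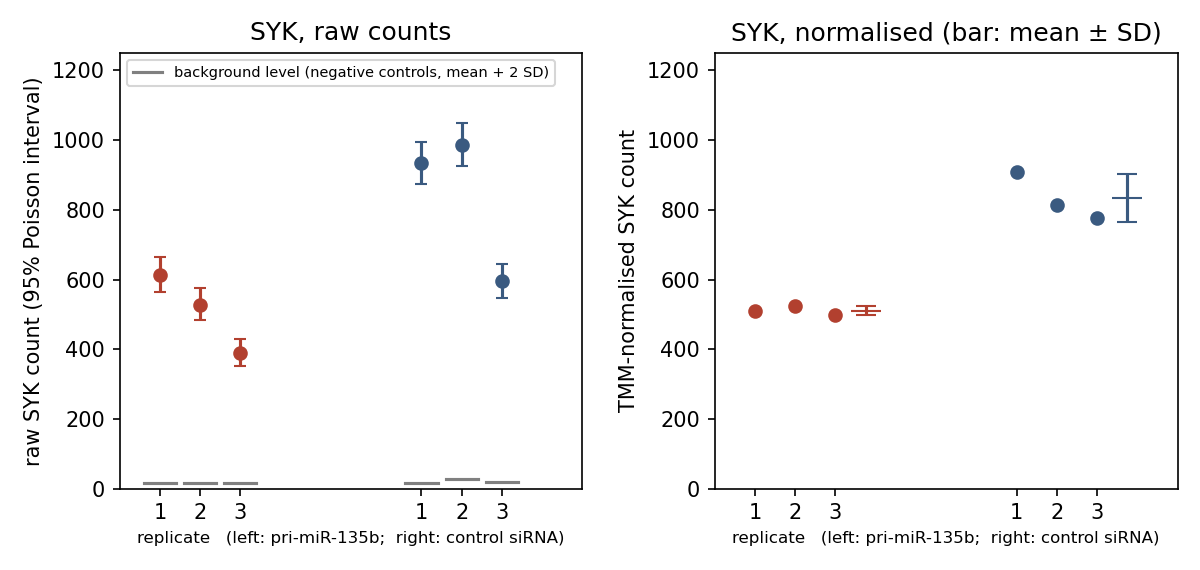
SYK in each sample, pri-miR-135b on the left and control siRNA on the right of each panel. The left panel gives raw counts with 95% Poisson intervals and, as grey bars, the background level; the right panel gives TMM-normalised counts with the mean and SD of each group. After normalisation the pri-miR-135b samples sit between 497.1 and 522.8 and the control samples between 777.3 and 909.6.

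With TMM scaling the coefficient of variation of SYK was 2.52% over the pri-miR-135b samples and 8.18% over the control samples. Counting error alone gives 4.48% and 3.52% on average for counts of this size. With spike scaling the order turned, at 17.0% with pri-miR-135b and 11.4% in control. With 3 samples a group, no difference in spread was tested. Under TMM, among the 51 other tested genes with a mean count within 2-fold of that of SYK, the median was 4.27% with pri-miR-135b and 4.99% in control, and 41 of the 51 varied more than SYK with pri-miR-135b, but 6 of the 51 in control.

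Control replicate 1 had the highest SYK value. Without it the log2 fold change was -0.64, or 1.56-fold lower, the smallest of 16 alternative settings. The largest, -0.74 or 1.67-fold lower, came without control replicate 3. Each other setting lay between these, and all differed from the value above by less than the pooled within-group SD of 0.09 (log2).

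The SYK counts were also set out under other ways of scaling. With the reference genes the means were 518.4 ± 11.2 in pri-miR-135b samples and 823.1 ± 74.3 in control (SD, n = 3 each). The authors' deposited normalized table lists SYK at 506.4, 528.5 and 501.2 in pri-miR-135b samples, against 918.5, 826.8 and 769.6 in control. Scaling by the positive spikes widened the spread most, to 519.5, 605.9 and 429.4 in pri-miR-135b samples, against 914.5, 821.8 and 727.3 in control, and the lowest control sample was then 1.20 times the highest pri-miR-135b sample. The groups stayed apart under each of the 6 scalings. All of these use the samples on which SYK was chosen, so they describe its values and add no separate support.

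Ratios within a sample need no scaling at all. SYK was 0.939%, 0.957% and 0.924% of the count of GAPDH, a glycolytic enzyme, in pri-miR-135b samples, against 1.66%, 1.48% and 1.43% in control. Relative to GUSB, a lysosomal enzyme, it stood at 108.5%, 111.2% and 106.8% with pri-miR-135b and at 185.3%, 171.7% and 165.3% in control. For all 6 reference genes (GAPDH, GUSB, PGK1, TUBB, CLTC and HPRT1) the SYK ratio was lower in every pri-miR-135b sample than in every control sample, by between 1.51-fold (PGK1) and 1.69-fold (TUBB) on average. PGK1 itself was called lower in the pri-miR-135b samples (log2 fold change -0.12 with an SE of 0.03, edgeR adjusted p = 0.000973), a call lost in 3 of the 16 alternatives (spike scaling, the deposited values and background subtraction). Set against each of the 173 other tested genes, the SYK ratio was lower in every pri-miR-135b sample for 155 and overlapped for 18; it was higher for 0. This count and the separation of the ratios to the reference genes follow from the choice of SYK and are given as a description.

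**Figure D2:**
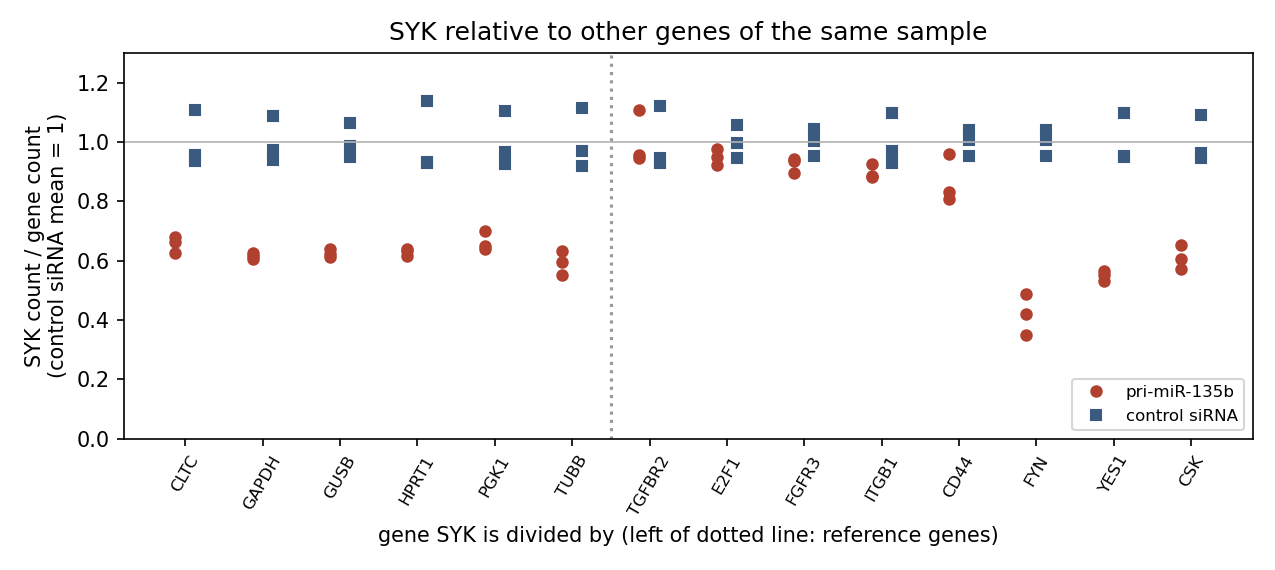
SYK count divided by the count of another gene of the same sample, with the mean of the 3 control siRNA samples set to 1; circles are pri-miR-135b samples and squares control siRNA samples. Against the 6 reference genes and the kinase genes FYN, YES1 and CSK the circles lie below the squares, while against TGFBR2, E2F1 and CD44 the 2 groups overlap.

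The choice of SYK had a close neighbour. TGFBR2, the type II TGF-beta receptor, had a log2 fold change of -0.71 like SYK, and E2F1, a transcription factor of S-phase entry, came next at -0.63. SYK and TGFBR2 differed by less than their SE, so their order has no meaning. SYK was first among the decreases in 8 of the 16 alternatives and at worst at rank 4. That rank came with no filter on low counts, where LCK, ATM and WNT1 stood before it. The ratio of SYK to TGFBR2 overlapped between the groups, at 214.3%, 251.4% and 216.7% in pri-miR-135b samples and 254.5%, 214.6% and 211.0% in control.

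The genes nearest to SYK over the 6 samples were found by the root mean square difference between log2 counts, each centred on its own mean. This distance is the same under any scaling by 1 factor per sample. The 5 nearest were E2F1 (0.06), FGFR3, a fibroblast growth factor receptor (0.07), ITGB1, the integrin beta-1 chain (0.11), TGFBR2 (0.11) and CD44, a hyaluronan receptor (0.14), against a median of 0.36 over the other tested genes. Since SYK was chosen for a large decrease, the genes near it are also genes with large decreases, and the distances carry no test. In control replicate 1 SYK lay 0.48 above its mean (log2), E2F1 0.36, FGFR3 0.42 and ITGB1 0.27. FGFR3 had, like SYK, its highest value in control replicate 1 and its lowest control value in replicate 3, with normalised counts of 464.5, 437.5 and 381.5 over control replicates 1 to 3. ITGB1 varied little within control, between 12176.7 and 12351.1.

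**Figure D3:**
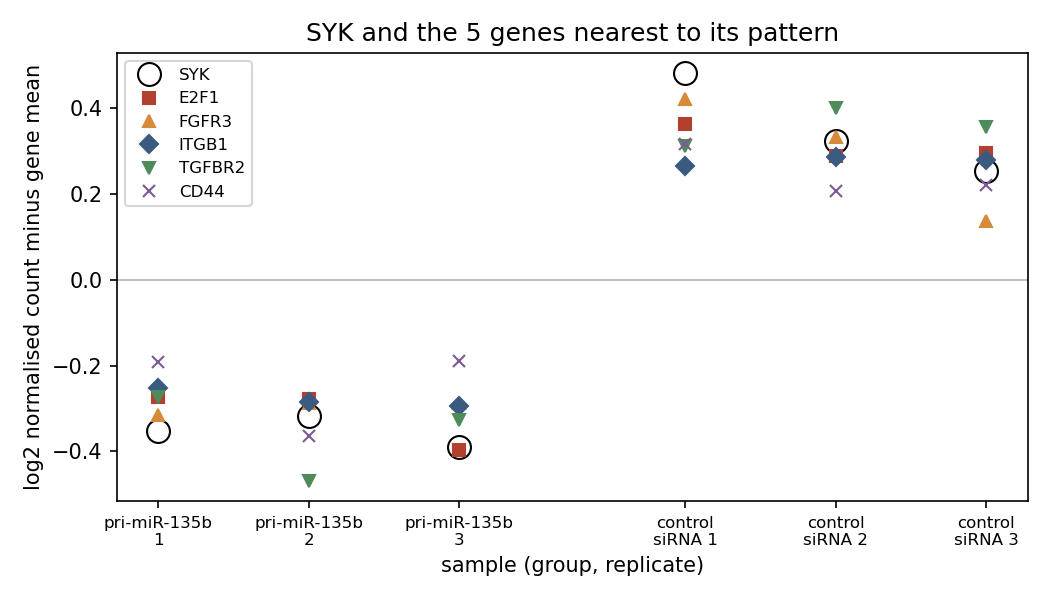
Log2 TMM-normalised count minus the gene's mean over the 6 samples, for SYK (open circles) and the 5 genes nearest to it; pri-miR-135b samples are on the left and control siRNA samples on the right. All 6 genes lie below 0 in the pri-miR-135b samples and above 0 in the control samples, with SYK highest in control replicate 1 at 0.48.

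The label of an epithelial line was checked against marker genes, since SYK is also a gene of blood cells. Of 12 epithelial markers listed, 7 were on the panel and 6 exceeded background in every sample. Their summed normalised counts were 9307 to 9480 in pri-miR-135b samples and 8180 to 8314 in control. Of the 6 tested, E-cadherin (CDH1, 1.22-fold) and the hepatocyte growth factor receptor MET (1.25-fold) were called higher and the receptors ERBB2 (1.14-fold) and ERBB3 (1.42-fold) lower, by edgeR (adjusted p = 4.92e-05, 4.1e-08, 0.0234 and 2.55e-07). That is 66.7% of 6 genes, beside 43.1% called over all tested genes. The CDH1 and MET calls were lost with spike scaling (edgeR adjusted p = 0.162 and 0.093). The ERBB2 call held in 6 of 16 alternatives. It was lost with DESeq2 size factors, reference genes, spikes, the DESeq2 Wald test, the deposited values and background subtraction. It was also lost without control replicate 1 or 3 or pri-miR-135b replicate 1 or 2. Of 20 blood cell markers 10 were on the panel, 7 of them above background in no sample. Their summed counts were 104.5 to 124.8 in pri-miR-135b samples and 112.4 to 113.9 in control. CD34, TAL1 and LYN exceeded background in 3, 4 and 4 samples and could be tested. None of them was called different between the groups (edgeR adjusted p = 0.478, 0.199 and 0.155). The myeloid genes SPI1 and CSF1R and the lymphoid kinase LCK stayed at or below 14 raw counts in every sample. Of 14 fibroblast and endothelial markers 7 were on the panel, with summed counts of 88.1 to 112.2 in pri-miR-135b samples and 73.2 to 113.9 in control. The 3 that could be tested, COL1A1, KDR and IGF1, exceeded background in 3, 3 and 5 samples. They were not called different between the groups (edgeR adjusted p = 0.838, 0.17 and 0.765). Such tests compare the groups and do not say whether a marker is expressed.

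The pathway around SYK was described with 8 lists of 101 genes. Of these, 27 were on the panel and 22 had enough counts to be tested. By edgeR 5 were called higher and 5 lower, 45.5% of the 22, which is near the 43.1% of all tested genes, and their median log2 fold change was -0.01, against -0.04 over all tested genes. None of the 10 genes listed as the family member ZAP70, ITAM receptors or adaptors was among the 236, so the receptors on which SYK docks in blood cells were not measured.

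**Figure D4:**
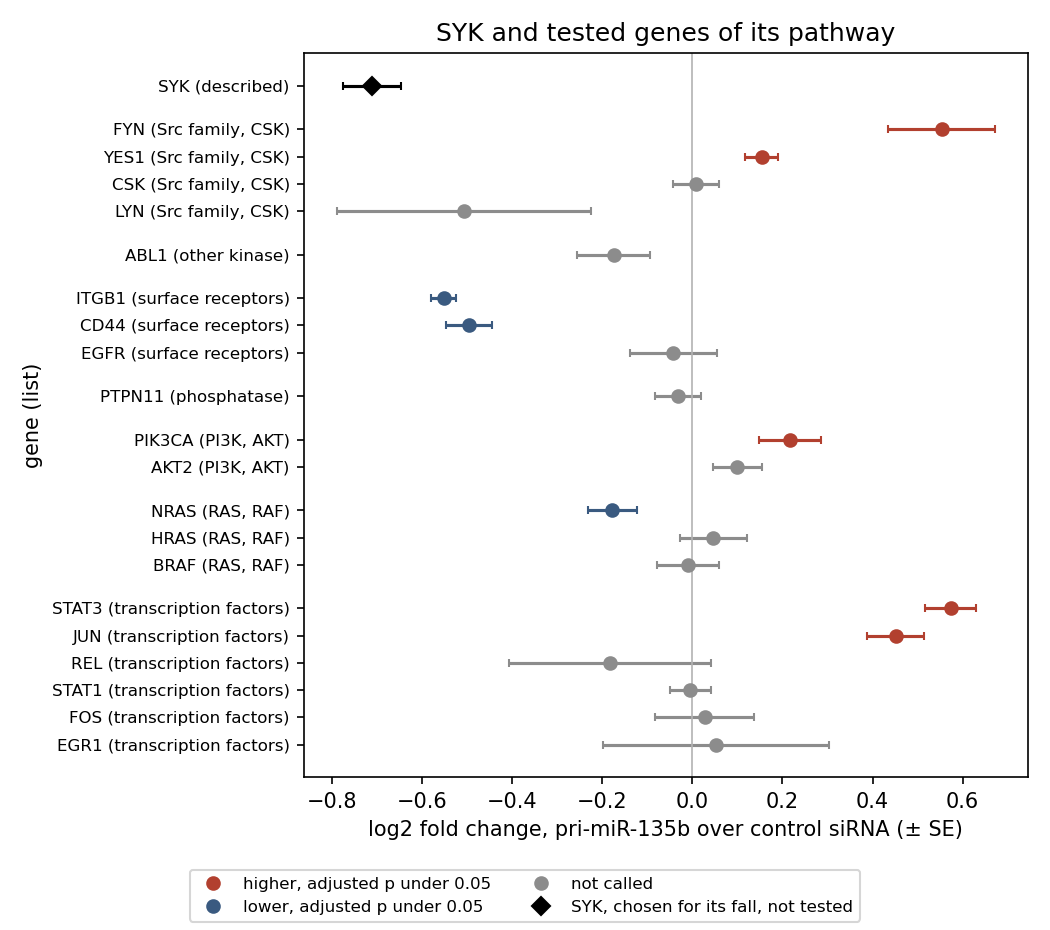
Log2 fold change with SE, pri-miR-135b over control siRNA, for SYK (diamond) and 20 of the 22 tested genes of its pathway lists. Red points were called higher (FYN, YES1, PIK3CA, STAT3 and JUN), blue points lower (ITGB1, CD44 and NRAS), and grey points were not called by edgeR.

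Among the Src-family kinases, which act before SYK, and CSK, 4 genes were tested, and FYN and YES1 rose. That is 50% of 4 genes, against 43.1% called and 17.8% called higher over all tested genes. The median log2 fold change was 0.08, against -0.04 over all tested genes. FYN had 176.4, 156.4 and 207.8 normalised counts in pri-miR-135b samples, against 127.6, 118.0 and 118.9 in control. The groups did not overlap, and the log2 fold change was 0.55 (SE 0.12, edgeR adjusted p = 0.000518). YES1 averaged 4476.9 ± 136.3 in pri-miR-135b samples and 4024.9 ± 104.0 in control (SD, n = 3 each), a rise of 1.11-fold (edgeR adjusted p = 0.0016) that was lost with spike scaling (adjusted p = 0.46). The SYK to FYN ratio was lower in every pri-miR-135b sample than in every control sample. It was 289.2%, 334.2% and 239.3% with pri-miR-135b, against 713.0%, 690.2% and 653.8% in control. This separation follows from the choice of SYK and the rise of FYN, and the ratio is given as a description.

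CSK, the kinase that switches Src-family kinases off, had 1315.8 ± 77.6 normalised counts with pri-miR-135b and 1307.9 ± 43.3 in control (SD, n = 3 each). It was not called (log2 fold change 0.01, 95% interval -0.10 to 0.12). LYN, which phosphorylates ITAM motifs in B cells, was close to background, with raw counts of 28, 18 and 9 in pri-miR-135b samples against 27, 24 and 27 in control. It was not called (log2 fold change -0.51 with an SE of 0.28, edgeR adjusted p = 0.155). The LYN call appeared in 1 alternative, without control replicate 2 (log2 fold change -0.72, edgeR adjusted p = 0.0331). The LYN value moved widely, to -0.30 without control replicate 3, -0.33 without pri-miR-135b replicate 3, -0.79 without pri-miR-135b replicate 1 and -1.40 with background subtracted and limma, none of which was called (adjusted p from 0.08 to 0.426). LCK and FGR, kinases of blood cells, exceeded background in no sample. ABL1, another cytoplasmic tyrosine kinase, was not called (log2 fold change -0.17 with an SE of 0.08, edgeR adjusted p = 0.0883).

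Of the 3 tested surface receptors linked to SYK, ITGB1 and CD44 fell. Their share, 66.7% of 3 genes, stands beside 43.1% called and 25.3% called lower over all tested genes. Both are also among the 5 genes nearest to SYK in pattern, and the list was chosen with earlier results known. ITGB1, through which cells attach to matrix, had 8512.3, 8319.2 and 8264.5 normalised counts in pri-miR-135b samples, against 12176.7, 12351.1 and 12289.3 in control. Its log2 fold change was -0.55 (SE 0.03, edgeR adjusted p = 1.92e-13). CD44 averaged 1631.6 ± 110.5 with pri-miR-135b and 2300.4 ± 97.5 in control (SD, n = 3 each; log2 fold change -0.50 with an SE of 0.05, edgeR adjusted p = 3.84e-08). EGFR, the epidermal growth factor receptor, was not called (log2 fold change -0.04, 95% interval -0.24 to 0.16). Of the 7 genes listed as negative regulators of SYK, only the phosphatase PTPN11 was measured. PTPN11 was not called either (log2 fold change -0.03, 95% interval -0.14 to 0.07), and its role toward SYK in these cells was not tested.

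Of the genes below SYK, PIK3CA, the catalytic PI3-kinase subunit p110 alpha, rose to 529.4 ± 24.2 with pri-miR-135b, against 452.5 ± 31.5 in control (SD, n = 3 each; log2 fold change 0.22 with an SE of 0.07, edgeR adjusted p = 0.0138), a call lost with spike scaling (adjusted p = 0.275) and without control replicate 1. AKT2, a kinase that PI3-kinase activates, was not called (log2 fold change 0.10 with an SE of 0.05, edgeR adjusted p = 0.148). In the RAS and MAP kinase branch the GTPase NRAS was called lower by 1.13-fold (edgeR adjusted p = 0.0108). It had 996.9, 1006.0 and 892.2 normalised counts in pri-miR-135b samples, against 1082.9, 1072.3 and 1139.2 in control, and the groups did not overlap. The NRAS call held in 11 of the 16 alternatives and was lost with spike scaling, reference gene scaling and background subtraction, without control replicate 3 and without pri-miR-135b replicate 3. HRAS, a related GTPase, was not called (log2 fold change 0.05, SE 0.07).

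Of 6 tested transcription factors on the lists 2 rose and the other 4 were not called. That is 33.3% of 6 genes, against 43.1% called and 17.8% called higher over all tested genes. STAT3, which is activated by cytokine receptors and tyrosine kinases, had 943.7, 932.7 and 883.3 normalised counts in pri-miR-135b samples, against 642.7, 630.6 and 577.4 in control. All 3 pri-miR-135b samples were above all 3 control samples (log2 fold change 0.57 with an SE of 0.06, edgeR adjusted p = 3.18e-08). JUN, a subunit of AP-1, averaged 631.9 ± 35.6 with pri-miR-135b and 463.1 ± 11.4 in control (SD, n = 3 each; log2 fold change 0.45 with an SE of 0.06, edgeR adjusted p = 4.07e-06). REL, an NF-kB subunit, was not called (log2 fold change -0.18, SE 0.22). FYN, ITGB1, CD44, STAT3 and JUN kept their calls in all 16 alternatives.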

How the data were processed

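RNA of NCM-460 cells was extracted with Trizol and prepared at 33 ng per microlitre by a core facility, per the labels' protocols. The authors deposited raw counts for 236 genes, 6 positive spikes and 8 negative controls. For the instrument, software and lane correction, the sources used here give nothing. They also deposited a normalized table, taken as linear signal: all 1416 values equal the raw count times 1 factor per sample (0.826 to 1.29) within 0.02, with the single count of 0 set to 1. The basis of these factors is not stated in the sources used here.

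Background was the mean of a sample's negative controls plus 2 SD (14.7 to 26.1 counts). Genes above it in at least 3 samples were tested (174). Counts were fitted with edgeR 4.0.16 (TMM, glmQLFit, glmQLFTest, with the group alone as term, R 4.3.3), two-sided and adjusted by Benjamini-Hochberg over the 174 genes, at a threshold of 0.05. SE is the absolute log2 fold change over the square root of F. The test draws each gene's spread toward a trend. Poisson intervals (95%) cover counting error only. Totals were 250792 to 392207 gene counts per sample.

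SYK, the lists and the tests were chosen with earlier results of these data known. Genes named were SYK, its neighbours in size of decrease and in pattern, the tested Src-family kinases and CSK, and from each list the called members (up to 6) and up to 2 not called. Some genes that this rule selects are not reported here. LCK, ATM and WNT1 were added after their values were seen. Alternatives were DESeq2 1.42.0 (size factors, Wald test), scaling by reference genes, spikes or totals, the deposited values and background-subtracted counts with limma 3.58.1, other filters, each sample left out and a replicate block. Deviations of same-numbered samples correlated at 0.04, -0.15 and 0.11, so numbers were not taken as pairs.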

Additional observations from a re-analysis of the deposited data

How the results depend on the processing

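The SYK log2 fold change lay between -0.74 and -0.64 over 16 alternatives (-0.71 above), and between the same values when 1 sample was left out. With the replicate block it was -0.71, 80 panel genes were called in place of 75, and 5 and 5 genes of the SYK pathway were again called higher and lower. Spike scaling gave 27 panel calls in place of 75, and 3 pathway genes higher and 2 lower in place of 5 and 5. Background subtraction, which was tested with limma, left 2 pathway genes lower; limma on the deposited values without subtraction left 4. For these, the cause was not tested. With each sample left out in turn, 60 to 76 panel genes were called. Of the 75 calls 31 were higher and 44 lower (41.3% higher), against 37 and 30 (55.2%) with reference genes and 33 and 29 (53.2%) with the DESeq2 Wald test. Of 335 values of named pathway, marker and reference genes, 301 stayed on the same side of the threshold with the same sign, 23 dropped out of the calls and 1 came in. The sign changed in 10, each in a gene that was called neither way. EGFR became 0.000938 with reference genes and 0.00251 with spikes, and PTPN11 0.00948 and 0.0105. With 1 sample left out, EGFR lay between -0.0969 and 0.0427, CSK between -0.0435 and 0.0440, HRAS between -0.00151 and 0.0891 and REL between -0.472 and 0.0281. The 5 nearest genes were the same 5 with reference gene scaling and with the deposited values, as the distance does not depend on the scaling.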
